A study of Saccharomyces cerevisiae with 4 samples.

Results

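The karyopherins of budding yeast are the soluble receptors that carry proteins and some RNAs through the nuclear pore complex. Those examined here, in RNA pulled down with the RNA-binding protein Whi3 and read on microarrays (RIP-chip), were KAP95, SRP1, KAP104, KAP123, PSE1, SXM1, CRM1, CSE1, MSN5 and LOS1, each found by its common name among the coding probes of the arrays. The family was selected on a measured value, the high net enrichment of KAP95 with Whi3 over 4 arrays, so that value is given as a description with no test. The family made up 10 of 5738 coding and named RNA probes, and all 10 were among the 4295 genes that had a value on every array.

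An importin binds its cargo in the cytoplasm and lets it go in the nucleus when the small GTPase Ran, in its GTP form, binds the importin. An exportin works the other way round: it binds cargo together with Ran-GTP in the nucleus, and the complex falls apart in the cytoplasm when the GTP is hydrolysed. Kap95 is importin beta, and it carries proteins with a classical nuclear localization signal through the adaptor Srp1, which is importin alpha. Each of the other import receptors listed here binds its own cargoes directly.

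Whi3 binds RNA through an RNA recognition motif (RRM) and restrains the G1 cyclin Cln3. The strains were MATa yeast of the W303 background (W303a), with its auxotrophic markers, grown to log phase in YPD. They carried, beside the KanMX4 marker, Whi3-TAP, tagged Whi3 expressed from its own promoter, or Whi3-dRRM-TAP, the same tagged protein without the RRM, as the control. RNA that came down on IgG Sepharose, which holds the protein A part of the tag, was labelled with Cy3 and hybridised against Cy5-labelled total RNA of the same strain. Both experiments were independent and gave 1 array per group, which makes 2 Whi3-TAP arrays and 2 Whi3-dRRM-TAP arrays, all in the same dye orientation. The probes were spotted double-stranded PCR products, which do not tell the strands of a transcript apart.

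The arrays differed in quality, which bears on every value below. With Whi3-TAP 79.8% and 86.5% of the yeast spots on arrays 1 and 2 carried no negative scanner flag, while with Whi3-dRRM-TAP the shares were 46.4% and 76.7%. Above background means here that a channel's intensity, after background subtraction, was more than 2 SDs of the local background. In the immunoprecipitate this held for 89.0% and 99.3% of the 4295 genes on the Whi3-TAP arrays, against 16.6% and 65.5% on the Whi3-dRRM-TAP arrays. The WHI3 probe had log2 ratios (immunoprecipitate to total RNA) of 0.09 and 0.16 with Whi3-TAP, against -0.12 and -0.03 with Whi3-dRRM-TAP. Since only a part of WHI3 was removed and whether the probe covers that part is not known here, its signal checks no label. CLN3, the known target of Whi3, had a net log ratio of 1.48 ± 0.14 (SD, n = 2 experiments) and stood at rank 79 of 4295.

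The measure used throughout is the net log ratio. For each experiment it takes the log2 ratio of immunoprecipitate to total RNA with Whi3-TAP, subtracts the one with Whi3-dRRM-TAP, and is then averaged over both. The study counted as putative targets those RNAs that exceeded the mean of all genes by a fixed number of SDs, which is a limit of 1.05 in these values. KAP95 was the only family member past it, against 215 of all 4295 genes (5.01%). LOS1 was the only member past the mirror-image lower limit of -1.21, against 217 genes (5.05%). The other 8 members lay between -0.86 and 0.51. The median over the 10 members was 0.13, beside -0.09 over all genes.

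**Figure D1:**
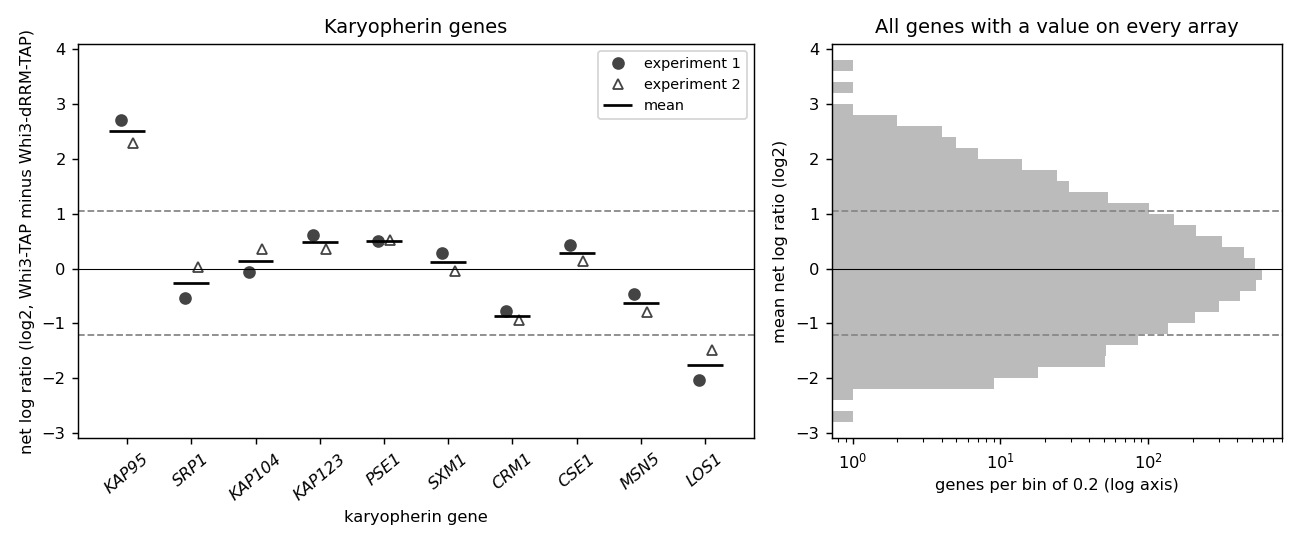
Left, net log ratio (log2, Whi3-TAP minus Whi3-dRRM-TAP) of the 10 karyopherin genes, with a circle for experiment 1, a triangle for experiment 2, a bar for the mean and dashed lines at the limits of 1.05 and -1.21. Right, the number of genes per bin of 0.2 among all 4295 genes (log axis). KAP95 lies at 2.50 and LOS1 at -1.76, and the other members lie within the bulk of the genes.

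KAP95 (YLR347C, on chromosome 12, with an annotated length of 2586 bp) was strongly enriched with Whi3-TAP and had small normalized log2 ratios with Whi3-dRRM-TAP. In the immunoprecipitate, relative to total RNA, it stood at log2 ratios of 2.65 and 2.46 with Whi3-TAP, against -0.07 and 0.17 with Whi3-dRRM-TAP. Its net log ratio was 2.72 in experiment 1 and 2.29 in experiment 2, a mean of 2.50 ± 0.31 (SD, n = 2 experiments) or 5.67-fold, at rank 8 of 4295 genes. The groups stood far apart, and the arrays within each lay close together.

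The scanned intensities behind the ratios of KAP95 are given as a description too, since the gene was chosen on a value computed from them. After background subtraction its immunoprecipitate signal averaged 13146 and 26203 on the Whi3-TAP arrays, against 1578 and 3451 on the Whi3-dRRM-TAP arrays. Its total RNA signal was 2678 and 3465 in the Whi3-TAP strain, against 2080 and 5036 in the Whi3-dRRM-TAP strain. Both channels were above background on every array, and the median share of saturated pixels over its used spots was 0% in each. Before any normalization, immunoprecipitate over total RNA was thus 4.91-fold and 7.56-fold with Whi3-TAP, against 0.759-fold and 0.685-fold with Whi3-dRRM-TAP. The median over all genes on the same arrays was 1.14-fold and 1.71-fold with Whi3-TAP, against 1.69-fold and 0.980-fold with Whi3-dRRM-TAP.

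KAP95 was also the best measured member of the family. It had 12 spots per array, printed from 3 plate wells, while each of the other members had 4 spots. The mean net log ratios of the 3 wells were 2.46, 2.41 and 2.62. These too are a description, since the gene was chosen on a value computed from the same spots. Of the 12 spots 10 were used on every array, and the log2 ratios of single spots ran over 2.53 to 2.99 and 2.04 to 2.87 with Whi3-TAP, against -1.22 to 0.40 and -0.42 to 0.71 with Whi3-dRRM-TAP. No spot of a Whi3-dRRM-TAP array reached the lowest spot of a Whi3-TAP array. The 2 flagged spots on each array were near blank in both channels, with -14 to 102 units in the immunoprecipitate and 37 to 151 units in total RNA.

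**Figure D2:**
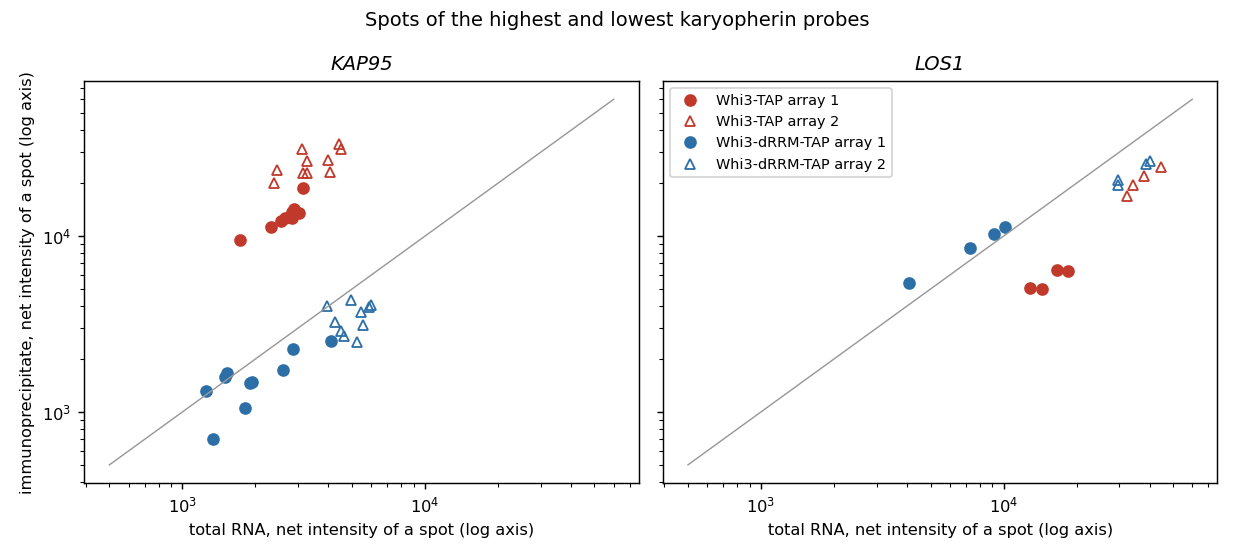
Immunoprecipitate against total RNA intensity after background subtraction (scanner units, log axes) for each used spot of KAP95 (left) and LOS1 (right), with colour for the group, filled circles for array 1, open triangles for array 2 and a grey line where the channels are equal. The Whi3-TAP spots of KAP95 lie above the line and its Whi3-dRRM-TAP spots lie around or below it. For LOS1 the Whi3-TAP spots and those of Whi3-dRRM-TAP array 2 lie below the line, and those of Whi3-dRRM-TAP array 1 above it.

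SRP1 (YNL189W, 1629 bp, on chromosome 14), the importin alpha that works as a dimer with Kap95, did not share the enrichment. It had log2 ratios of -0.997 and -0.843 with Whi3-TAP, against -0.45 and -0.87 with Whi3-dRRM-TAP, so the groups overlapped. For the net log ratio this gave -0.54 and 0.02 in the experiments, a mean of -0.26 ± 0.40 (SD, n = 2), at rank 2645. Its immunoprecipitate was above background on both Whi3-TAP arrays and on neither Whi3-dRRM-TAP array, and only 2 of its 4 spots were used on Whi3-dRRM-TAP array 1. The adjusted p of its net log ratio was 0.509 by limma.

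The 4 import receptors that bind cargo directly lay near or a little above the median of all genes. PSE1 (YMR308C, 3270 bp, on chromosome 13), also known as Kap121, carries among others the transcription factors Pho4 and Yap1. It had log2 ratios of 0.63 and 0.67 with Whi3-TAP, against 0.13 and 0.15 with Whi3-dRRM-TAP. Its net log ratio of 0.50 and 0.52, a mean of 0.51 ± 0.01 (SD, n = 2) or 1.42-fold, was the second highest of the family and stood at rank 739 of 4295. The groups of PSE1 did not overlap, and the experiments lay closest together of all 10 members.

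KAP123 (YER110C, 3342 bp, on chromosome 5) imports ribosomal proteins and histones. KAP123 had log2 ratios of -0.25 and -0.09 with Whi3-TAP, against -0.86 and -0.45 with Whi3-dRRM-TAP, and a net log ratio of 0.48 ± 0.18 (SD, n = 2). On both kinds of array the normalized ratio was thus negative, and less so with Whi3-TAP. Before normalization KAP123 was 0.798-fold and 1.40-fold with Whi3-TAP, against 0.712-fold and 0.553-fold with Whi3-dRRM-TAP. Its immunoprecipitate was not above background on Whi3-dRRM-TAP array 1. KAP104 (YBR017C, 2757 bp, on chromosome 2), the transportin that imports the mRNA-binding proteins Nab2 and Hrp1, had a net log ratio of -0.07 and 0.35, a mean of 0.14 ± 0.30 (SD, n = 2). The KAP104 ratios were -0.15 and 0.02 with Whi3-TAP, against -0.08 and -0.34 with Whi3-dRRM-TAP, and the groups overlapped. Neither Whi3-dRRM-TAP array had its immunoprecipitate above background (limma adjusted p = 0.695 for the net log ratio).

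SXM1 (YDR395W, 2835 bp, on chromosome 4), also known as Kap108, imports the RNA-binding protein Lhp1. Its log2 ratios were -0.07 and -0.33 with Whi3-TAP, against -0.36 and -0.28 with Whi3-dRRM-TAP, and they overlapped. By experiment the net log ratio was 0.29 and -0.05 in the experiments, a mean of 0.12 ± 0.24 (SD, n = 2). The mean was smaller than its spread, as it was for KAP104 and SRP1. Neither channel of SXM1 was above background on Whi3-dRRM-TAP array 1.

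Of the 4 exportins, 3 had a negative net log ratio in both experiments, as did 41.2% of all genes. CSE1 (YGL238W, 2883 bp, on chromosome 7) returns Srp1 to the cytoplasm once its cargo has been delivered. It was the one exportin on the positive side, with log2 ratios of -0.27 and -0.27 with Whi3-TAP, against -0.69 and -0.40 with Whi3-dRRM-TAP. The net log ratio of CSE1 was 0.43 and 0.13, a mean of 0.28 ± 0.21 (SD, n = 2). On Whi3-dRRM-TAP array 1 only 2 of its 4 spots were used, and neither channel was above background.

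CRM1 (YGR218W, 3255 bp, on chromosome 7) exports proteins with a leucine-rich export signal. CRM1 had log2 ratios of -0.31 and -0.40 with Whi3-TAP, against 0.47 and 0.54 with Whi3-dRRM-TAP, so the normalized ratios of the groups had opposite signs. Before normalization CRM1 was 0.726-fold and 1.09-fold with Whi3-TAP, against 1.14-fold and 0.755-fold with Whi3-dRRM-TAP. Its net log ratio was -0.77 and -0.94, a mean of -0.86 ± 0.12 (SD, n = 2) or 0.552-fold, at rank 3804. Its immunoprecipitate and total RNA were above background on every array.

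MSN5 (YDR335W, 3675 bp, on chromosome 4) exports phosphorylated proteins, among them Pho4 and Far1. It had log2 ratios of 0.24 and -0.03 with Whi3-TAP, against 0.70 and 0.76 with Whi3-dRRM-TAP, and a net log ratio of -0.46 and -0.79, a mean of -0.63 ± 0.23 (SD, n = 2). MSN5 was the most weakly measured member, above background in the immunoprecipitate of only 1 array of each group. In total RNA it was above background on Whi3-TAP array 2 only. On Whi3-TAP array 1 a single spot of MSN5 held 12869 units in the immunoprecipitate and 9920 units in total RNA, while its other spots there held 624 to 900 units in the immunoprecipitate. Without that spot the net log ratio was -0.73, a choice made after its values were seen.

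LOS1 (YKL205W, 3303 bp, on chromosome 11) exports tRNAs, and it had the lowest net log ratio of the family. Its log2 ratios were -0.96 and -1.13 with Whi3-TAP, against 1.07 and 0.36 with Whi3-dRRM-TAP. This gave a net log ratio of -2.04 and -1.49, a mean of -1.76 ± 0.39 (SD, n = 2) or 0.295-fold, at rank 4259 of 4295. Both groups stood apart, with normalized ratios of opposite sign.

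LOS1 was well above background in both channels, and its difference between the groups was not alike in both experiments before normalization. Its immunoprecipitate signal was 5715 and 20808 units with Whi3-TAP, against 8885 and 23195 units with Whi3-dRRM-TAP. Its total RNA signal was 15548 and 37292 units in the Whi3-TAP strain, against 7671 and 34584 units in the Whi3-dRRM-TAP strain. In experiment 2 the share of saturated pixels in its total RNA spots had a median of 1.5% for the Whi3-TAP strain, and of 3.5% for the Whi3-dRRM-TAP strain. Before normalization the LOS1 ratio was 0.368-fold and 0.558-fold with Whi3-TAP, against 1.16-fold and 0.671-fold with Whi3-dRRM-TAP, a log2 difference of -1.66 in experiment 1 but only -0.27 in experiment 2. The medians of all genes on the arrays, before normalization, differed between the groups by -0.56 in experiment 1 and 0.81 in experiment 2. LOS1 lay below that difference in both. CRM1 had an unnormalized difference of 0.53 in experiment 2, positive but also below that of the medians. KAP95 had 2.69 and 3.46.

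**Figure D3:**
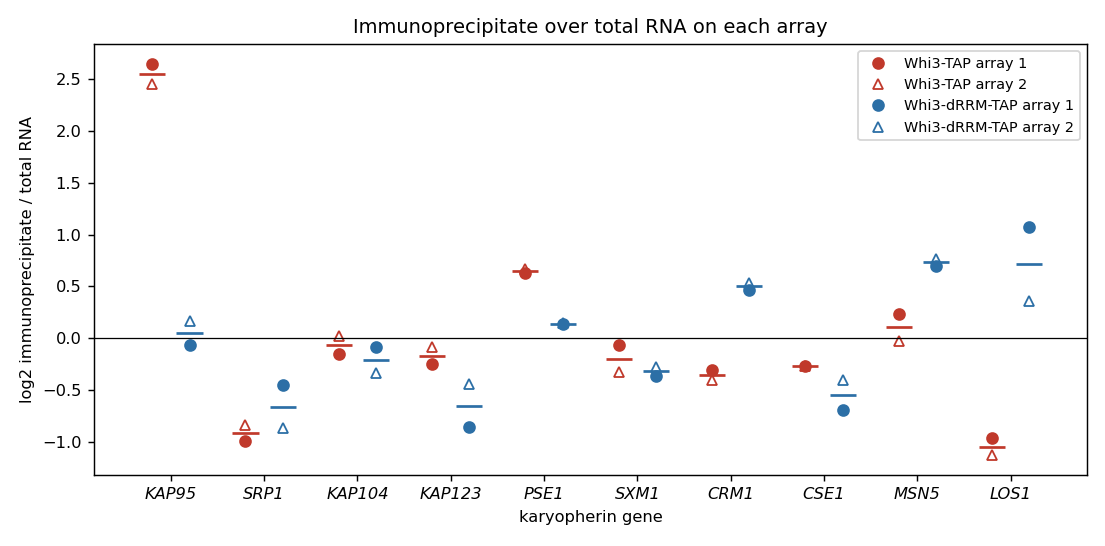
Log2 ratio of immunoprecipitate to total RNA of the 10 karyopherin genes on each array, with circles for array 1 and open triangles for array 2, and Whi3-TAP to the left of Whi3-dRRM-TAP for each gene. KAP95 reaches 2.65 and 2.46 with Whi3-TAP and lies near 0 with Whi3-dRRM-TAP, while LOS1 and CRM1 lie below 0 with Whi3-TAP and above 0 with Whi3-dRRM-TAP.

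Set in order of the net log ratio, the family ran KAP95, PSE1, KAP123, CSE1, KAP104, SXM1, SRP1, MSN5, CRM1 and LOS1. The values of the experiments overlapped between each pair of neighbours from PSE1 down to CRM1, so the order of neighbours among those 8 is not settled by these arrays. KAP95 and LOS1 stood apart from their neighbours in both experiments. Of the 10 members 4 were positive in both experiments (32.4% of all genes were), KAP95 among them by choice, and 3 were negative in both (41.2% of all genes were). The Whi3-TAP ratios lay above both Whi3-dRRM-TAP ratios for 4 members (26.6% of all genes) and below both for 3 members (34.2%).

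Across all genes the net log ratio was tested with limma, with the experiment as a block. Of the 9 members other than KAP95 none passed a Benjamini-Hochberg adjusted p of 0.05. Nor did any gene of the arrays (0.00% with higher and 0.00% with lower values), the smallest adjusted p being 0.0678. At an unadjusted p under 0.05 there were 548 genes higher (12.8%) and 709 lower (16.5%), and 3 of the 9 members were among the lower ones. Those were LOS1 (limma adjusted p = 0.0678), CRM1 (0.0968) and MSN5 (0.156). With no block LOS1 passed, with an adjusted p of 0.0470 by limma, beside 132 genes in all. Fits on 3 arrays had no block either, and took the spread from the group that kept both arrays. Without Whi3-dRRM-TAP array 1 LOS1 passed (0.0176), beside 530 genes in all. Without Whi3-dRRM-TAP array 2 LOS1 (0.00104) and CRM1 (0.0272) passed, beside 1530 genes in all. With a Whi3-TAP array left out, whichever it was, no gene passed.

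The immunoprecipitate was also compared with total RNA inside each group, as a log2 ratio against 0 with limma, which leaves any dye effect in the value and is a component of the net log ratio. Ratios were normalized within each array, so 0 stands for the typical spot of like intensity there, not for equal amounts. With Whi3-TAP, PSE1 was higher in the immunoprecipitate (adjusted p = 0.0361 by limma), and the genes that passed on that side were 447 in all (10.4%). KAP95 stood on that side too, and is given with no test since it was chosen for this value. SRP1 and LOS1 were lower (0.0248 and 0.0284), as were 384 genes (8.94%). With Whi3-dRRM-TAP, the background control, MSN5 was higher (0.0295), as were 586 genes (13.6%). The total RNA of MSN5, though, was above background on neither of those arrays. SRP1 and KAP123 were lower (0.0471 and 0.0487), as were 396 genes (9.22%). In the immunoprecipitate SRP1 was above background on neither of those arrays, and KAP123 on 1 of them. Of these calls, that of PSE1 ended with median centring, that of LOS1 with print-tip loess, and those of PSE1 and SRP1 with Whi3-TAP in the deposited series matrix. With Whi3-dRRM-TAP the SRP1 call ended with no background correction, with median centring and in the series matrix, and the KAP123 call with no background correction and in the series matrix. The series matrix is not centred, so 0 is not the typical ratio there. Its array medians were 0.25 and 0.21 with Whi3-TAP, against 1.08 and 0.52 with Whi3-dRRM-TAP.

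Changes of 2 channels make up the net log ratio, and these were looked at apart after scaling the arrays to each other. The immunoprecipitate of KAP95 was higher with Whi3-TAP by 2.29 ± 0.54 on the log2 scale (SD, n = 2 experiments), while its total RNA differed by -0.22 ± 0.23 between the strains. LOS1 differed by -1.21 ± 0.04 in the immunoprecipitate and by 0.55 ± 0.35 in total RNA, and CRM1 by -0.47 ± 0.25 and 0.39 ± 0.13. For both of those genes the channels moved opposite ways in both experiments. A higher total RNA with Whi3-TAP was common, though. It was seen in both experiments for 62.8% of all genes, with a median difference of 0.31. The median immunoprecipitate difference over all genes was 0.23. KAP123 was higher with Whi3-TAP in both channels, by 1.11 ± 0.22 in the immunoprecipitate and by 0.63 ± 0.04 in total RNA. Part of its immunoprecipitate difference is thus also present in total RNA, where the median over all genes was positive too.

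Total RNA is a channel that the choice of KAP95 did not use by itself, and it gives the level of each mRNA in the strains. The log2 total RNA level of KAP95 was 11.53 and 11.18 in the Whi3-TAP strain, against 11.58 and 11.56 in the Whi3-dRRM-TAP strain. None of the 10 members passed limma between the strains with the experiment as a block, while 82 genes were higher with Whi3-TAP (1.91%) and 4 lower (0.0931%). The adjusted p of the members ran from 0.0887 for MSN5 to 0.987 for PSE1. At an unadjusted p under 0.05 there were 647 genes with more total RNA in the Whi3-TAP strain (15.1%), KAP123 and MSN5 among them. MSN5 differed by 0.89 ± 0.80 with its bright spot on Whi3-TAP array 1 and by 0.47 without it. Its total RNA was above background on Whi3-TAP array 2 only. The total RNA of 8 members was higher with Whi3-TAP in both experiments, but so was that of 62.8% of all genes, and the median over all genes was 0.31. Both Whi3-TAP arrays lay above both Whi3-dRRM-TAP arrays for 3 members, beside 40.2% of all genes. For KAP95 both lay below.

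**Figure D4:**
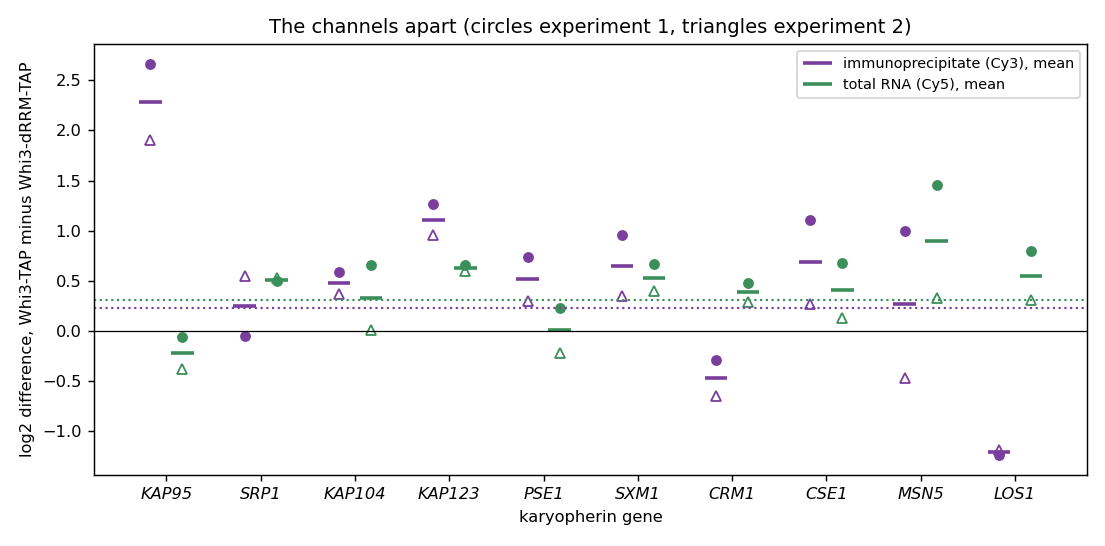
Log2 difference between the groups, Whi3-TAP minus Whi3-dRRM-TAP, of the immunoprecipitate and of total RNA for the 10 karyopherin genes, with circles for experiment 1, triangles for experiment 2, and a bar for the mean. The medians over all genes are 0.23 for the immunoprecipitate and 0.31 for total RNA. KAP95 has the highest immunoprecipitate difference of the family, 2.29, with a total RNA difference of -0.22.

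The genes that work beside these receptors were counted in 4 lists, which were chosen with earlier results of these data known. Of the 31 listed genes with a probe 27 had a value on every array. Their median net log ratio was 0.00, beside -0.09 over all genes. Of those 27, 1 gene lay above the upper limit (5.01% of all genes did) and 2 lay below the lower limit (5.05% of all genes did). None passed limma after adjustment, nor did any other gene of the arrays.

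Of the 5 other karyopherins 2 were measured on every array, KAP120 at 0.68 ± 0.40 and KAP114, which imports histones and the TATA-binding protein, at -0.76 ± 0.00 (SD, n = 2 experiments each). KAP120 did not exceed background in the immunoprecipitate of either Whi3-dRRM-TAP array. MTR10, NMD5 and KAP122 each lacked a value on 1 Whi3-dRRM-TAP array. The single experiment that measured them gave 1.51 for MTR10, -1.99 for NMD5 and -0.73 for KAP122. NMD5 was above background in no immunoprecipitate.

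All 9 genes of the Ran cycle were measured and lay between the limits, with a median of -0.04. The highest was YRB2, a Ran-binding protein that helps Crm1, at 0.40 ± 0.73, and the lowest was YRB30, another Ran-binding protein, at -0.51 ± 0.68 (SD, n = 2 each). Ran itself, GSP1, had 0.20 ± 0.12, its exchange factor SRM1 -0.04 ± 0.01, and its GTPase-activating protein RNA1 0.17 ± 0.06.

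Among 10 cargoes, adaptors and release factors of the members 9 were measured, with a median of -0.03. NAB2, the poly(A)-binding cargo of Kap104, was the one listed gene above the limit, at 1.18 ± 0.19 and rank 148 (limma adjusted p = 0.0750). With Whi3-dRRM-TAP no array had its immunoprecipitate above background. NUP2, the nucleoporin that helps release cargo from Srp1 and Kap95, lay below the lower limit at -1.25 ± 0.02 (0.0712). Its log2 ratios were -0.28 and -0.05 with Whi3-TAP, against 0.98 and 1.19 with Whi3-dRRM-TAP.

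Of the mRNA export genes outside the karyopherins 7 were measured, with a median of 0.26, while YRA1 matched no probe. The highest was MEX67, the main mRNA export receptor, at 0.63 ± 0.31 (SD, n = 2; limma adjusted p = 0.168), with an immunoprecipitate above background on no Whi3-dRRM-TAP array. DBP5, the helicase that strips export factors from mRNA at the cytoplasmic face of the pore, lay below the lower limit at -1.45 ± 0.07 (SD, n = 2; adjusted p = 0.0686). Its log2 ratios were -0.44 and -0.61 with Whi3-TAP, against 1.06 and 0.79 with Whi3-dRRM-TAP.

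The members run from 1629 to 3675 bp in annotated length. Genes of that range were 1233 of those measured, with a median net log ratio of -0.11. Of them 50 (4.06%) lay above the upper limit and 57 below the lower limit. The genes that flank KAP95 do not overlap it. DIC1, on one side, had a net log ratio of -0.62, and CIS1, on the other, had a value in experiment 2 only, of 0.45.

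The 5 genes whose 4 log2 ratios lay nearest to those of KAP95 were found by Euclidean distance among the 4295 genes. They were YGR035C (distance 0.489), CDC6 (0.626), FUR1 (0.702), MIG2 (0.785) and NDD1 (0.848). None of them is a karyopherin. CDC6 loads the replicative helicase, FUR1 is a uracil phosphoribosyltransferase, MIG2 is a repressor of glucose-repressed genes and NDD1 an activator of mitotic genes. Their net log ratios ran from 2.26 for NDD1 to 2.94 for YGR035C. In the Whi3-dRRM-TAP immunoprecipitates CDC6 was above background on neither array and the other four on 1 each, whereas KAP95 was above it on both.

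**Figure D5:**
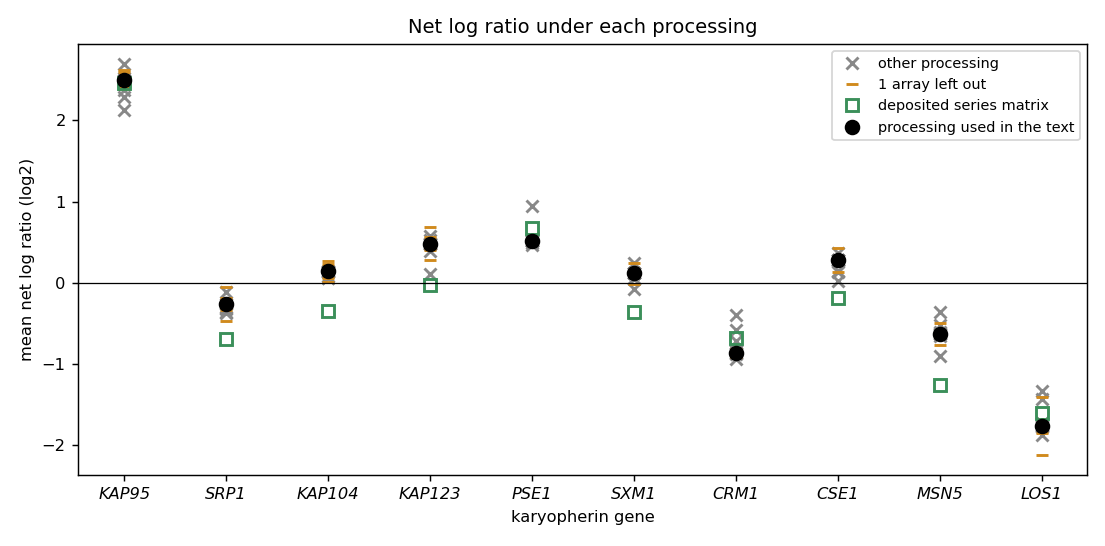
Mean net log ratio (log2) of each karyopherin gene with the processing used in the text (filled circles), with 1 array left out (orange bars), with other processing (grey crosses) and in the deposited series matrix (open squares). KAP95 stays between 2.13 and 2.70 and LOS1 between -2.12 and -1.33 in all of these, while the middle of the family shifts around 0.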

How the data were processed

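The 4 arrays (2 of Whi3-TAP, then 2 of Whi3-dRRM-TAP) had 2 colours and spotted PCR products. Per the file headers, the deposited tables hold an intensity for foreground and local background per spot and channel, the percent of saturated pixels, and a flag score that is negative for spots marked at the scan. The deposited log2 ratio of a spot, total RNA over immunoprecipitate, carries 1 scaling constant per array from the authors' database and was not used in the text. The deposited series matrix gives the authors' log2 ratio per probe, found by comparison to run as immunoprecipitate over total RNA and to be uncentred, and was used as an alternative. No genome build is named for the probes, and no sequences or positions were used here.

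Each array had 32256 spots, 31688 of them yeast. Flagged spots were left out. Background was corrected by normexp (offset 50), ratios were normalized by loess within arrays, and spots of a probe were averaged. Each channel was examined apart after Aquantile scaling. Of 5738 genes 5548 matched RefSeq by systematic name, and a value on all 4 arrays was required. Tests used limma 3.58.1 in R 4.3.3 (2-sided, Benjamini-Hochberg at 0.05), with version 1.17.8 of data.table and jsonlite 2.0.0. The test of the net log ratio had the experiment as a block (1 residual and 3.17 prior degrees of freedom). The study's methods state that the whole experiment was done 2 times and subtract the control within each, and deviations of same-numbered arrays from their group means correlated at r = 0.218. The scripts were tested on simulated data. Figures used Python 3.11.15, matplotlib 3.10.9 and pandas 2.3.3.

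The members and lists were chosen with earlier results of these data known. All members are named, as are pathway genes beyond a limit, the highest and lowest of each list, and the 5 genes nearest to KAP95. GSP1, SRM1, RNA1, KAP122, NMD5 and MTR10 were named beside that rule, after their values were seen. Alternatives changed the block, background, normalization, flags, spot average and dim-gene filter, used the series matrix, or left out an array. A number of 2 arrays per group limits every value.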

Additional observations from a re-analysis of the deposited data

Results flagged for a closer look

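CRM1 and LOS1 drew attention because their normalized log2 ratio of immunoprecipitate to total RNA lay below 0 on both Whi3-TAP arrays and above 0 on both Whi3-dRRM-TAP arrays. The net log ratio, which is the difference between the groups, was -0.86 for CRM1 and -1.76 for LOS1, with limma adjusted p-values of 0.0968 and 0.0678, so neither passed. Opposite signs of this kind, in either direction, were seen in 724 of 4295 genes (16.9%). The part of the uneven quality of the arrays in these values was not tested.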

How the results depend on the processing

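KAP95 was the 1 member above the upper limit under all alternatives, and its net log ratio ran from 2.13 with flagged spots kept to 2.70 with median centring. LOS1 was the 1 member below the lower limit except with median centring, where 0 members were (-1.33 against a limit of -1.38). The count of the 9 other members passing limma, 0 in the text, was 1 with no replicate block, with the median over spots and with dim genes left out (LOS1 each time, with 8 members left in the last). It was 2 with no background correction and with flagged spots kept (CRM1 and LOS1) and in the series matrix (MSN5 and LOS1), and 0 to 2 with 1 array left out, where the block was dropped too and 1 group had a single array, assumed to vary like the other group. Over all genes the passing counts, 0 in the text, were 132 with no replicate block, 100 with median centring, 363 with the median over spots, 433 with dim genes left out, 462 in the series matrix, 674 with no background correction, 1051 with flagged spots kept, and, with the block also dropped, 530 without Whi3-dRRM-TAP array 1 and 1530 without Whi3-dRRM-TAP array 2. The causes of these shifts were not tested. KAP95 apart, 3 members passed against total RNA with Whi3-TAP, and 1 in the series matrix (LOS1), where 0 is not the typical ratio. With median centring they were SRP1, CRM1 and LOS1, all lower. With Whi3-dRRM-TAP 3 passed, against 5 with flagged spots kept (CRM1 and LOS1 added, both higher) and 1 in the series matrix (MSN5). They were CRM1, MSN5 and LOS1, all higher, with no background correction, and with median centring KAP123 and PSE1 lower and MSN5 higher. In total RNA 0 did, against 2 with no background correction (MSN5 and LOS1). Over all genes the total RNA calls, 82 higher and 4 lower, became 0 and 0 with no replicate block, with flagged spots kept and without 1 array (block dropped), except without Whi3-dRRM-TAP array 2 (197 and 7), and were 206 and 10 with no background correction. Of the 114 net log ratios of members that an alternative could move 89 moved by less than 1 SD, and 25 by more. The median over all genes was -0.21 with median centring and -0.48 in the series matrix. There KAP104 (-0.35), KAP123 (-0.03), SXM1 (-0.35) and CSE1 (-0.19) were negative, though above that median. With 1 residual degree of freedom, and few genes above background in the Whi3-dRRM-TAP immunoprecipitates, small differences could not be detected.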
